A study of Mus musculus with 32 samples.

Results

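PRDM9 peaks that carried strain-specific H3K4me3 but no DMC1 (class 1d) were examined in the 2 mouse strains. A PRDM9 interval belonged to class 1d when it overlapped the central 400 bp of no DMC1 interval of its strain, was covered for less than 10% of its length by H3K4me3 common to both strains, and was covered for at least 10% by H3K4me3 specific to its own strain. By this rule 24 of 2601 B6 peaks (0.923%, 95% exact Clopper-Pearson interval 0.592 to 1.37%) and 404 of 10121 RJ2 peaks (3.99%, interval 3.62 to 4.39%) were class 1d, or 428 of 12722 peaks in all. The members were thus chosen by measured DMC1 and H3K4me3 intervals, and both signals are described below without a test. The strains are kept apart throughout.

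In meiosis, PRDM9 binds DNA through its zinc fingers and trimethylates lysine 4 of histone H3 on the neighbouring nucleosomes. SPO11 then cuts some of the bound sites, and the recombinase DMC1 coats the resected single-stranded ends, so that DMC1 ChIP maps sites of double-strand breaks. H3K4me3 also marks active promoters whatever the PRDM9 allele. A mark present in only 1 of 2 strains that differ at *Prdm9* is therefore read as PRDM9-dependent in this field.

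PRDM9 was mapped in whole testes at 13 days post-partum, with 2 ChIP replicates of pooled animals in strain C57BL/6JOlaHsd (B6, with the *Prdm9* Dom2 allele) and 2 in B10.MOLSGR(A)-(D17Mit58-D17Jcs11)/Bdm (RJ2, with the Cst allele on a C57BL/10 background). The same antibody was used on testes of that age from *Prdm9* knockout mice (B6;129P2-Prdm9tm1Ymat/J, 1 replicate) and *Spo11* knockout mice (Spo11tm1M, which keep the Dom2 allele, 2 replicates). DMC1 came from whole testes at 5 weeks (2 replicates per strain) and H3K4me3 from elutriated pachytene cells of adults (1 library per strain), so the 3 signals of a class were not taken from the same animals, ages or cells. The lists give pooled positions on mm9 without a height, a read count or a value per replicate. Peaks are therefore the units of every interval and test, which cover the counting of peaks only and not the spread between mice.

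The members often held the sequence that marks hotspots of their strain. A matrix was learned for each PRDM9 allele on class 1a peaks (specific H3K4me3 with DMC1) of odd-numbered autosomes, starting from the 8-base word most in excess over the same windows moved by 10 kb. The word was GCAGCACC in B6 and AGGTCACA in RJ2, both strands were searched, and the 24-base matrices read NNNNGNNNGNAGCANCNNNNNNNN for Dom2 and NNNNNNAAANGNCANANNCCNAGN for Cst, where a base is given if at least 60% of the sites held it. A peak was said to hold the motif when the best site in its central 200 bp scored above a limit passed by 5% of all moved windows of the strain. The highest-scoring sites of the members are shown because they are the members' best matches to a matrix learned on cut hotspots, written 5′ to 3′ along the matrix with the 8 positions of the learned word in capitals. In B6 these were
B6 peak 2437, chr3:49060439-49060462, plus strand: ttcaggtgACAGCAGCtgctggtg
B6 peak 1309, chr6:145372997-145373020, minus strand: aagggttaGCAGCATCtggtgctc
B6 peak 727, chr19:58834062-58834085, minus strand: tgatcgtgGCAGCACCaccctggg
B6 peak 1784, chr13:59175353-59175376, plus strand: acagtacgACAGCACCagccttca
B6 peak 1395, chr7:147288249-147288272, plus strand: ctcaggagACAGCACCttcgggat
B6 peak 877, chr9:106577921-106577944, minus strand: gtaggatgGCAGTAACttgaggac
B6 peak 1769, chr14:71171563-71171586, plus strand: atatcataGTAGCACCttcaatca
B6 peak 1241, chr17:27142012-27142035, plus strand: gctgggtgGCACCAGCatgcggca
B6 peak 2225, chr9:105447571-105447594, plus strand: caattacaGCAGCACCtcaagggc
B6 peak 2351, chr14:71170336-71170359, plus strand: atactgtaGTAGCATCtgcaattc

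In RJ2 the highest-scoring sites were
RJ2 peak 1676, chr2:33540627-33540650, minus strand: ctagagaaAGGTCACAtgtccagt
RJ2 peak 8122, chr11:113519247-113519270, minus strand: tgagtgaaAGGTCAAAggcacagg
RJ2 peak 3157, chr17:32813203-32813226, plus strand: ccctgcaaAGGGCACAgccacagt
RJ2 peak 906, chr10:80062209-80062232, plus strand: aacaggaaCAGTCACAgcccaaac
RJ2 peak 5986, chr11:44960831-44960854, minus strand: aagtgcatAGGTCACAtgcccagg
RJ2 peak 6714, chr1:78255333-78255356, minus strand: ggagggacAAGTCACAgtcaaaga
RJ2 peak 1890, chr1:10160399-10160422, minus strand: agacacagAGGTCACAttccaagc
RJ2 peak 9600, chr8:128644286-128644309, minus strand: gagggtaaAAGTCAAAggcccaag
RJ2 peak 9635, chr12:110876821-110876844, minus strand: caatggaaAAGCCAAAggcacagt
RJ2 peak 5701, chr15:40340005-40340028, minus strand: acctggaaAGGGCAAAgtccaacc

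Few of the printed sites held the learned word intact, and it was not common in class 1a either. Of the class 1a windows of 200 bp used for learning, 86 of 801 in B6 and 193 of 3299 in RJ2 held it. Of the 10 B6 sites, those of peaks 727 and 2225 held GCAGCACC without a mismatch, and of the 10 RJ2 sites those of peaks 1676, 5986 and 1890 held AGGTCACA. The B6 peak 727 lay 81 bp from the start of *Pnliprp2*, which encodes a pancreatic lipase-related protein, and peak 2225 was intergenic. The strongest RJ2 site of these belonged to peak 1676, in an intergenic stretch of chromosome 2, with a log2 odds score of 23.05 against a limit of 10.68.

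The first members of each list that held the motif show its place in the peak. Capitals mark the 24-base site in the central 200 bp, on the plus strand of mm9.
B6 peak 538, chr10:41996051-41996250, plus strand: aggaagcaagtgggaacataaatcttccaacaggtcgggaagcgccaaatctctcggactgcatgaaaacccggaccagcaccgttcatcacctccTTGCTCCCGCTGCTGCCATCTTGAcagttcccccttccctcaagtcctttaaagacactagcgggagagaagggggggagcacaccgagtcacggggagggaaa
RJ2 peak 440, chr14:70389420-70389619, plus strand: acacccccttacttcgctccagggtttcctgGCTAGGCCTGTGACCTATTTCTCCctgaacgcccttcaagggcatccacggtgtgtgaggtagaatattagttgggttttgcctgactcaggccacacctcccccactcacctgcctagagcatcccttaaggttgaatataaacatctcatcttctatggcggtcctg
The B6 window lies in the first part of *Foxo3*, an intronic position 397 bp downstream of a start of this forkhead transcription factor gene, and its site was centred 8 bp from the peak centre with a score of 13.56. The RJ2 window lies in an intron of *Pebp4*, and its site, 57 bp from the centre, scored 19.79. The weakest of the 24 best sites in B6 is given for contrast, at peak 1783 in an intron of the ephrin receptor gene *Epha6*, where the score was -2.59 and nothing is in capitals.
B6 peak 1783, chr16:59680576-59680775, plus strand: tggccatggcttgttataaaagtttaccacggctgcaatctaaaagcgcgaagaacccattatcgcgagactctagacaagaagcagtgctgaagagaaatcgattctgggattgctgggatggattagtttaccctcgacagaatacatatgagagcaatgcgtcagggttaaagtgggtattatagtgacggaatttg

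In B6, 17 of 24 class 1d peaks (70.8%, interval 48.9 to 87.4%) held the Dom2 motif, against 516 of 849 class 1a peaks on chromosomes not used for learning (60.8%, interval 57.4 to 64.1%) and 59 of 260 in class 2B (22.7%, interval 17.7 to 28.3%), which had neither DMC1 nor H3K4me3. Over all B6 peaks not used for learning the share was 43.7%, and 131 of the 2601 moved windows (5.04%) passed. The share in 1d was higher than in 2B (two-sided Fisher's exact test, adjusted p = 1.27e-05 over 22 tests), and a difference from 1a of 10.1 percentage points did not pass the threshold (adjusted p = 0.553). By the same exact test, the call against 2B was lost when the learned word with at most 1 mismatch was counted, which 14.4% of moved windows held (14 of 24 against 97 of 260, adjusted p = 0.0928), and in the first 50% of the list (7 of 9 against 9 of 23, adjusted p = 0.192). With the stricter limit passed by 1% of moved windows, 11 members kept a motif (45.8%), against 38.8% of 1a and 9.62% of 2B peaks. The matrix of the other allele was found in 2 of the 24 (8.33%), against 5.45% of class 1a.

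In RJ2, 180 of 404 class 1d peaks (44.6%, interval 39.6 to 49.5%) held the Cst motif, against 1613 of 3092 class 1a peaks (52.2%, interval 50.4 to 53.9%) and 188 of 2449 in class 2B (7.68%, interval 6.65 to 8.80%). The share over all RJ2 peaks not used for learning was 33.5%, and 507 of 10121 moved windows (5.01%) passed. Class 1d stood 36.9 percentage points above 2B (Fisher's exact test, adjusted p = 2.28e-68) and below 1a, with a difference of -7.61 points (adjusted p = 0.00934). Against 2B the difference was 15.2 points when the learned word with at most 1 mismatch was counted (148 of 404 against 525 of 2449, exact test, adjusted p = 1.28e-09). The size of the difference from 1a, and its call, moved with the setting. In the first 50% of the list it was -13.4 points (49 of 128 against 982 of 1900, Fisher's exact test, adjusted p = 0.00756). It was -4.81 points with the 1% limit (Fisher's exact test, adjusted p = 0.108) and turned to 0.249 points when that word was counted instead of the matrix (36.6 against 36.4%, adjusted p = 1, with 20.2% of moved windows). By the same exact test it was -3.63 points without peaks within 1 kb of a transcription start (adjusted p = 0.364) and -5.47 points in the last 50% of the list (adjusted p = 0.184), 2 alternatives added after the data were seen. The Dom2 matrix was found in 24 of the 404 (5.94%), against 5.34% of class 1a. The RJ2 sites printed above leave out those on chromosome 18.

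The place of the motif in the peak was set beside that in class 1a. A window of 200 bp allows a site no farther than 88 bp from the centre. Among peaks past the limit the median distance was 20 bp in 1d and 31.0 bp in 1a of B6. In RJ2 it was 33.5 bp in 1d and 31.0 bp in 1a. These 1a distances include the peaks on which the matrix was learned. The best sites of members under the limit lay at medians of 38 bp in B6 and 39 bp in RJ2. Past the limit, the median score was 14.8 in 1d and 14.6 in 1a of B6, and 15 in 1d and 14.9 in 1a of RJ2. For these scores the 1a peaks used for learning were left out. Class 2B peaks that passed the limit scored lower, with medians of 13.0 in B6 and 12.4 in RJ2, and their sites lay 33.0 and 43.0 bp from the centre. These distances and scores were not tested.

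**Figure D1:**
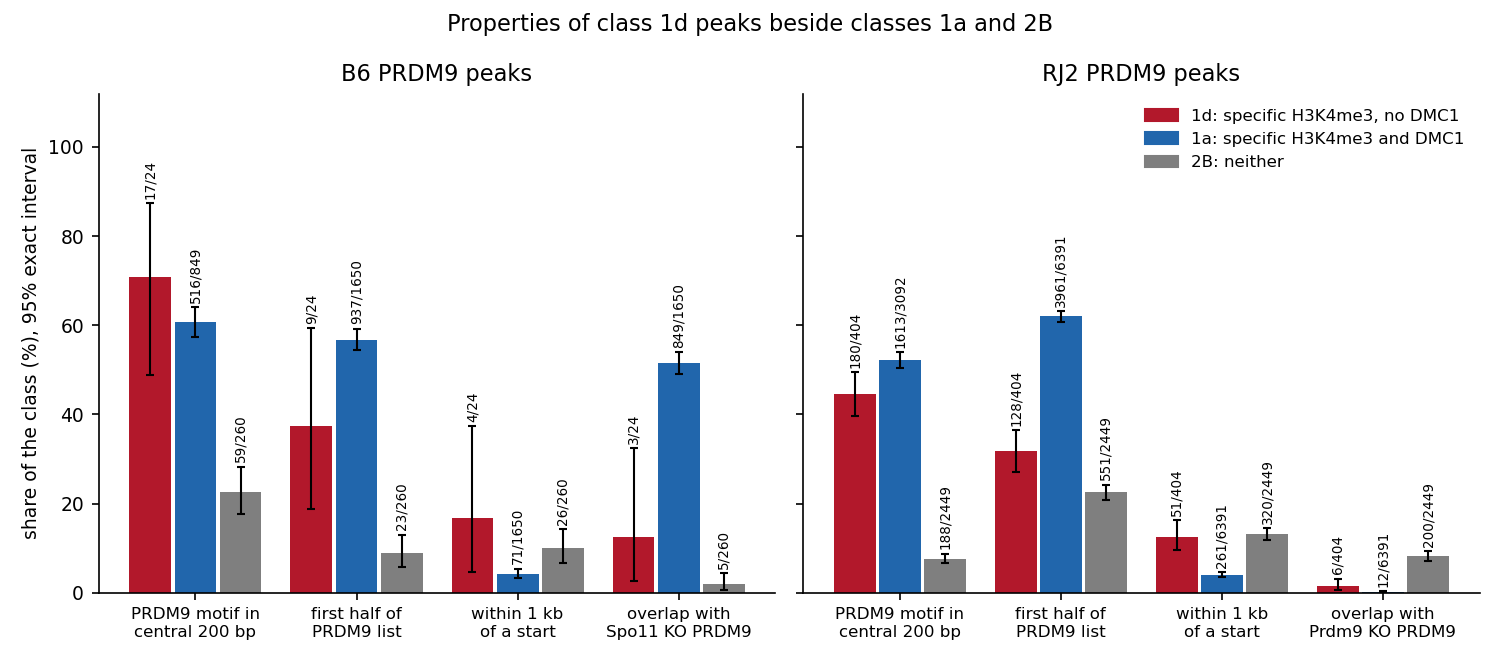
Shares of peaks (vertical axis, %) in class 1d (red), class 1a (blue) and class 2B (grey) of B6 (left) and RJ2 (right), with 95% exact intervals and the numbers of peaks above each bar; class 1a motif shares are from chromosomes not used for learning. The motif share of 1d is above that of 2B in both strains (70.8 against 22.7% in B6, 44.6 against 7.68% in RJ2) and below that of 1a in RJ2 (44.6 against 52.2%), and in RJ2 the first 50% of the list holds 31.7% of 1d, against 62.0% of 1a and 22.5% of 2B peaks.

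Most RJ2 members came late in the PRDM9 list. The lists are not sorted by position, and the files do not say what orders them. Interval widths fell along both of them, with a median of 708 bp in the first 20% and 334 bp in the last 20% of the B6 list, and 858 and 382 bp in RJ2. None of the 24 B6 members stood among the first 529 peaks, and the first was peak 530. In the first 50% were 9 of 24 B6 members (37.5%, interval 18.8 to 59.4%), against 937 of 1650 class 1a peaks (56.8%) and 23 of 260 in class 2B (8.85%), where 50% of all peaks lie by construction. The share was higher than in 2B (Fisher's exact test, adjusted p = 0.00105) and its difference of -19.3 points from 1a did not pass the threshold (adjusted p = 0.109). Counting the first 25% of the B6 list in place of 50% ended the call against 2B (3 of 24 against 6 of 260, Fisher's exact test, adjusted p = 0.0584).

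In RJ2, 128 of 404 members (31.7%, interval 27.2 to 36.5%) were in the first 50%, against 3961 of 6391 class 1a peaks (62.0%) and 551 of 2449 in class 2B (22.5%), with 50% of all peaks there by construction. The share was lower than in 1a (adjusted p = 1.15e-31) and higher than in 2B (adjusted p = 3.29e-04, Fisher's exact test for both). With the first 25% counted, the difference of 9.18 points from 2B was 5.03 points (36 of 404 against 95 of 2449, exact test, adjusted p = 1.78e-04). Of the RJ2 peaks with specific H3K4me3 (1d and 1a together), class 1d made up 22 of 1818 (1.21%) in the first 20% of the list, 68 of 1579 (4.31%), 74 of 1329 (5.57%) and 101 of 1152 (8.77%) in the next bins of 20%, and 139 of 917 (15.2%, interval 12.9 to 17.6%) in the last bin. In B6 the same shares were 0 of 361, 8 of 390 (2.05%), 5 of 375 (1.33%), 4 of 321 (1.25%) and 7 of 227 (3.08%, interval 1.25 to 6.25%), with intervals that overlapped from bin 2 on.

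Widths were also set beside those of class 1a at the same place. In RJ2 the median in bin 1 was 906 bp in class 1d and 848 bp in class 1a, and in the other 4 bins the classes were closer, with 382 bp in 1d and 381 bp in 1a in the last. In B6, bin 2, which held 8 of the 24 members, had medians of 478 bp in 1d and 569 bp in 1a. Over the whole list the medians were 476 bp in 1d and 595 bp in 1a of RJ2, and 417 and 512 bp in B6. The widest member in B6 measured 712 bp (peak 1241, chr17:27141648-27142359, in an intron of *Ggnbp1*, which encodes a gametogenetin-binding protein). In RJ2 it measured 2391 bp (peak 1855, chr17:27454975-27457365, intergenic) over an H3K4me3 interval of 1195 bp.

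The motif share of RJ2 members was also counted along the list. Of the members in bins 1 to 5, 31.8%, 32.4%, 45.9%, 46.5% and 50.4% held the motif, against 50.8%, 52.6%, 51.7%, 52.6% and 54.5% of class 1a. Intervals of 1d and 1a were apart in bin 2 only (22 of 68, interval 21.5 to 44.8%, against 385 of 732, interval 48.9 to 56.3%). Class 2B stayed between 6.39 and 9.43% in all 5 bins. In the first 50% of the list the motif share was 38.3% in members (49 of 128, interval 29.8 to 47.3%), and in the last 50% 47.5% (131 of 276, interval 41.4 to 53.5%). These intervals overlap, as do those of bins 1 and 5, and the difference between parts of the list was not tested.

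**Figure D2:**
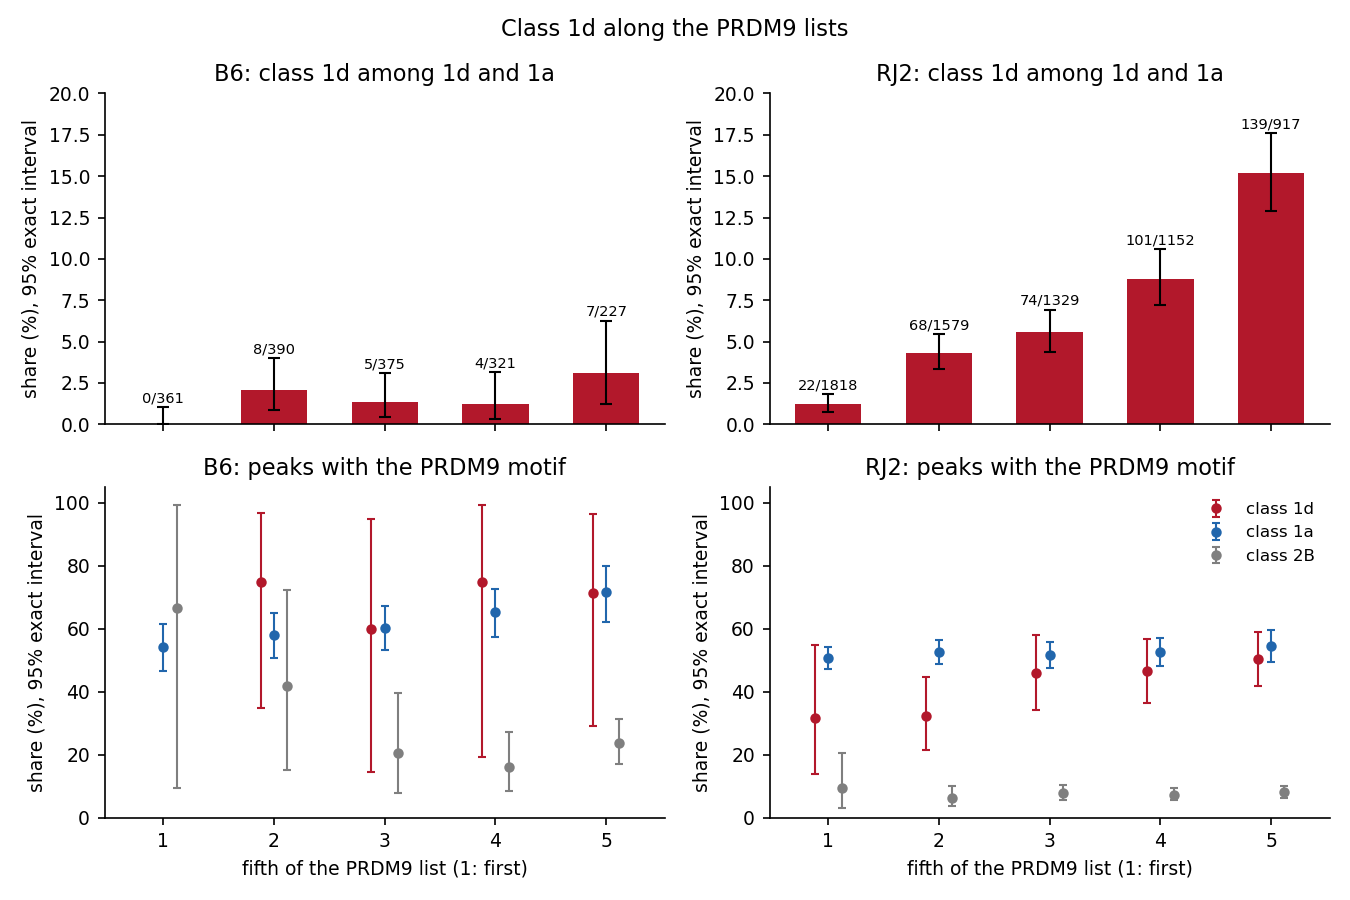
Top, share of class 1d among peaks with specific H3K4me3 (1d and 1a) in each bin of 20% of the B6 (left) and RJ2 (right) list; bottom, share of peaks with the PRDM9 motif in classes 1d (red), 1a (blue) and 2B (grey), with 95% exact intervals. In RJ2 the share of 1d goes with list place, from 1.21% in bin 1 to 15.2% in bin 5, and its motif share is 31.8% in bin 1 and 50.4% in bin 5.

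The H3K4me3 interval of a member, the mark that chose it, covered the whole peak less often, and was narrower, than at class 1a peaks, which was not tested. All of the PRDM9 interval was covered in 12 of 24 B6 members and 247 of 404 RJ2 members (61.1%), against 88.1% of class 1a peaks in B6 and 88.4% in RJ2. The interval's median width was 718 bp in 1d and 1198 bp in 1a of B6, and 832 bp in 1d and 1384 bp in 1a of RJ2. The threshold of 10% cover was not crowded. The members nearest above it were covered by 15.9% (B6 peak 2244, beside *Slc36a1*) and 48.1% (B6 peak 717), and by 16.1% (RJ2 peak 4905) and 17.8% (RJ2 peak 8629, in an intron of *Mfng*, a fringe glycosyltransferase gene). The nearest peaks below it, of class 2B, were at 0% in B6 and at 8.05 and 7.10% in RJ2. No member had any cover by common H3K4me3.

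Some members sat at the edge of a break site, and most were far from one. The nearest DMC1 centre of the strain lay within 1 kb of 6 of 24 B6 members (25%, interval 9.77 to 46.7%) and of 48 of 404 RJ2 members (11.9%, interval 8.89 to 15.4%), against 2 of 260 (0.769%) and 15 of 2449 (0.612%) class 2B peaks. Within 10 kb were 8 of 24 members in B6 (33.3%, interval 15.6 to 55.3%) and 119 of 404 in RJ2 (29.5%, interval 25.1 to 34.2%), against 15% and 13.7% of class 2B peaks. The median distance came to 39762 bp for B6 members and 38212 bp for RJ2 members. These shares have no test, because the absence of DMC1 was part of the choice.

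The gap between a member and the nearest central 400 bp ran from a few bases to over 1 Mb. In RJ2 the smallest gaps were 3 bp (peak 2511, chr15:99419884-99421263, 706 bp upstream of the water channel gene *Aqp5*), 8 bp (peak 4731, in an intron of the histone demethylase gene *Phf2*) and 12 bp (peak 9263), and the class 1a peaks nearest to the other side of that threshold overlapped the central part by 5 and 9 bp. In B6 the smallest were 110 bp (peak 2351), 168 bp (peak 1037) and 312 bp (peak 1309), with class 1a overlaps from 7 bp on. The largest gaps in RJ2 were 1243152 bp and 1060098 bp, at peaks 3608 and 6565 on chromosome 3 near *Rpe65* and *Depdc1a*, and 721221 bp at peak 6880 on chromosome 18. In B6 they were 112348 bp (peak 2555), 112050 bp (peak 1241) and 99989 bp (peak 1784, in an intron of the neurotrophin receptor gene *Ntrk2*).

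**Figure D3:**
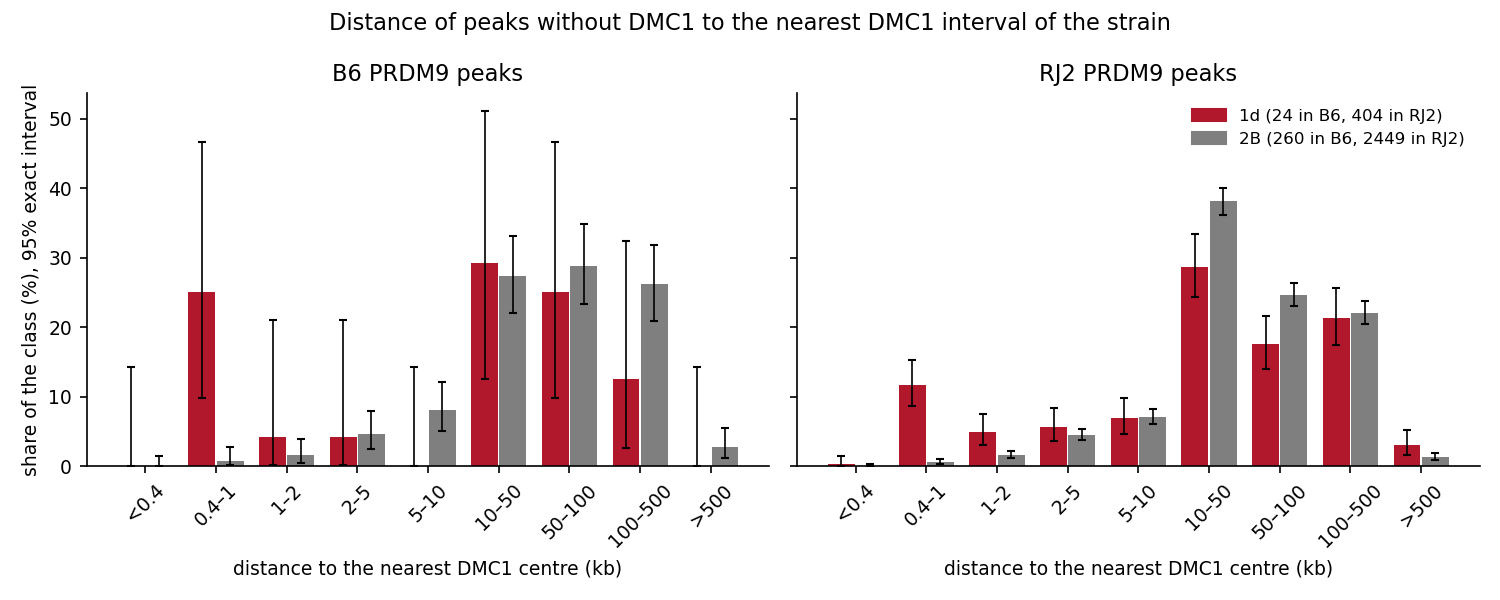
Distance from the peak centre to the nearest DMC1 centre of the same strain (horizontal axis, kb) for class 1d (red) and class 2B (grey) peaks of B6 (left) and RJ2 (right), as shares of each class with 95% exact intervals. Between 0.4 and 1 kb lie 25% of B6 and 11.6% of RJ2 members, against 0.769% and 0.572% of 2B peaks, and from 10 to 50 kb 29.2% and 28.7% of members, against 27.3% and 38.2% of 2B peaks.

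Some members were reached by a DMC1 interval outside its central part. The whole DMC1 interval reached 6 members in B6 and 65 in RJ2 (16.1%), which would be class 1a if the whole interval counted. The median width of these intervals came to 2590 bp for B6 and 2734 bp for RJ2, against 2035 and 1796 bp for the intervals of class 1a. The rule favours such widths, since an interval that reaches a member must do so without its central 400 bp. The difference in width was not tested. In 27 of the 65 RJ2 cases another PRDM9 peak lay on the centre of the DMC1 interval, in 8 another class 1d peak lay on the opposite side of the centre, and in 30 no other peak lay in the interval. In B6 the numbers were 0, 2 and 4. The motif was present in 28 of the 65 (43.1%, interval 30.8 to 56.0%) and in 152 of the other 339 RJ2 members (44.8%, interval 39.5 to 50.3%).

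DMC1 intervals with a member on each side of the centre numbered 1 in B6 and 4 in RJ2. In B6 the pair was at *Dok2*, a docking protein gene of tyrosine kinase signalling. Peaks 2351 (chr14:71170131-71170509) and 1769 (chr14:71171351-71171714) were 1213 bp apart inside a DMC1 interval of 3220 bp, at 110 and 331 bp from its central part, each with its own H3K4me3 interval (895 and 742 bp) and its own motif, with scores of 14.75 and 15.20. Their 24-base sites are listed above and both begin with ata and hold GTAGCA. In RJ2 the pairs were peaks 2597 and 2815 on chromosome 1, 3246 and 7163 at *Sox5*, 3851 and 8554 at *Fgfr1* and 5445 and 9504 at *Gpr64* on the X chromosome. The first 2 of these pairs shared a single H3K4me3 interval, of 3605 and 2918 bp. The motif was in 1 member of each pair, except at *Fgfr1*, where it was in neither.

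Shared H3K4me3 intervals were found in RJ2. Of its members 22 of 404 (5.45%, interval 3.44 to 8.13%) had another PRDM9 peak in the same H3K4me3 interval, against 40 of 6391 class 1a peaks (0.626%, interval 0.448 to 0.851%). In B6 0 of 24 members did, which allows a share of up to 12.5%. Such a limit, here and below, is 3 divided by the number of peaks. The exact interval reaches 14.2% for 0 of 24. In 18 RJ2 pairs the other peak was class 1a, at a distance of 682 to 1740 bp over all 20 pairs and with a median H3K4me3 width of 2429 bp. In each of the 18 the member stood later in the list than its class 1a mate, and in 15 it was narrower. RJ2 members as a whole also came later and were narrower than class 1a peaks, and these counts were not tested. The motif was in 7 of the 18 members and in 14 of the 18 mates, some of which were on chromosomes used to learn the matrix.

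The pairs whose member came first in the list were RJ2 peak 1206 with the class 1a peak 823, near *Tmem179* on chromosome 12, and peak 1645 with the class 1a peak 754, near *Zswim4* on chromosome 8. The members measured 1016 and 953 bp and both held the motif, and the class 1a peaks measured 796 and 1359 bp. At *Plrg1*, a splicing factor gene, the member was peak 9093 and its class 1a mate peak 127 of the same list. At that site the member had no motif and its mate had one.

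**Figure D4:**
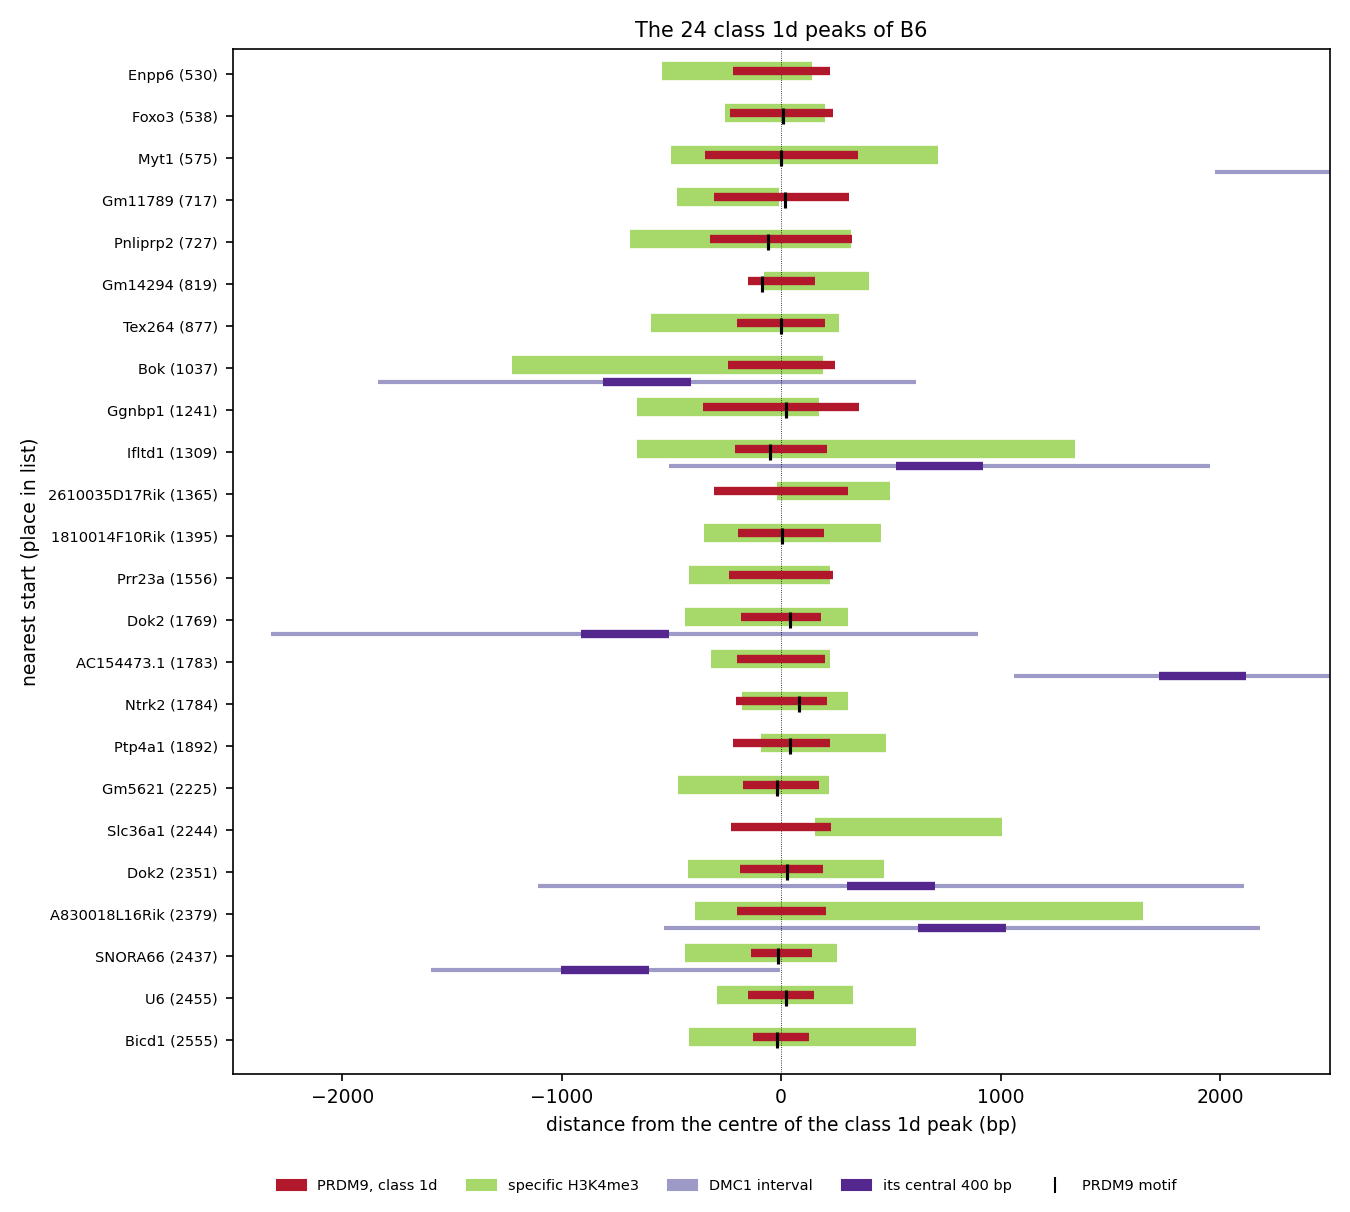
The 24 class 1d peaks of B6 in list order, named by the nearest transcription start and the place in the list, with the PRDM9 interval (red), the specific H3K4me3 interval (green), DMC1 intervals (violet, central 400 bp dark) and the motif (black tick), by distance from the peak centre in bp. DMC1 intervals reach the red bar at 6 members, among them both peaks at *Dok2*, whose central part lies between them.

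**Figure D5:**
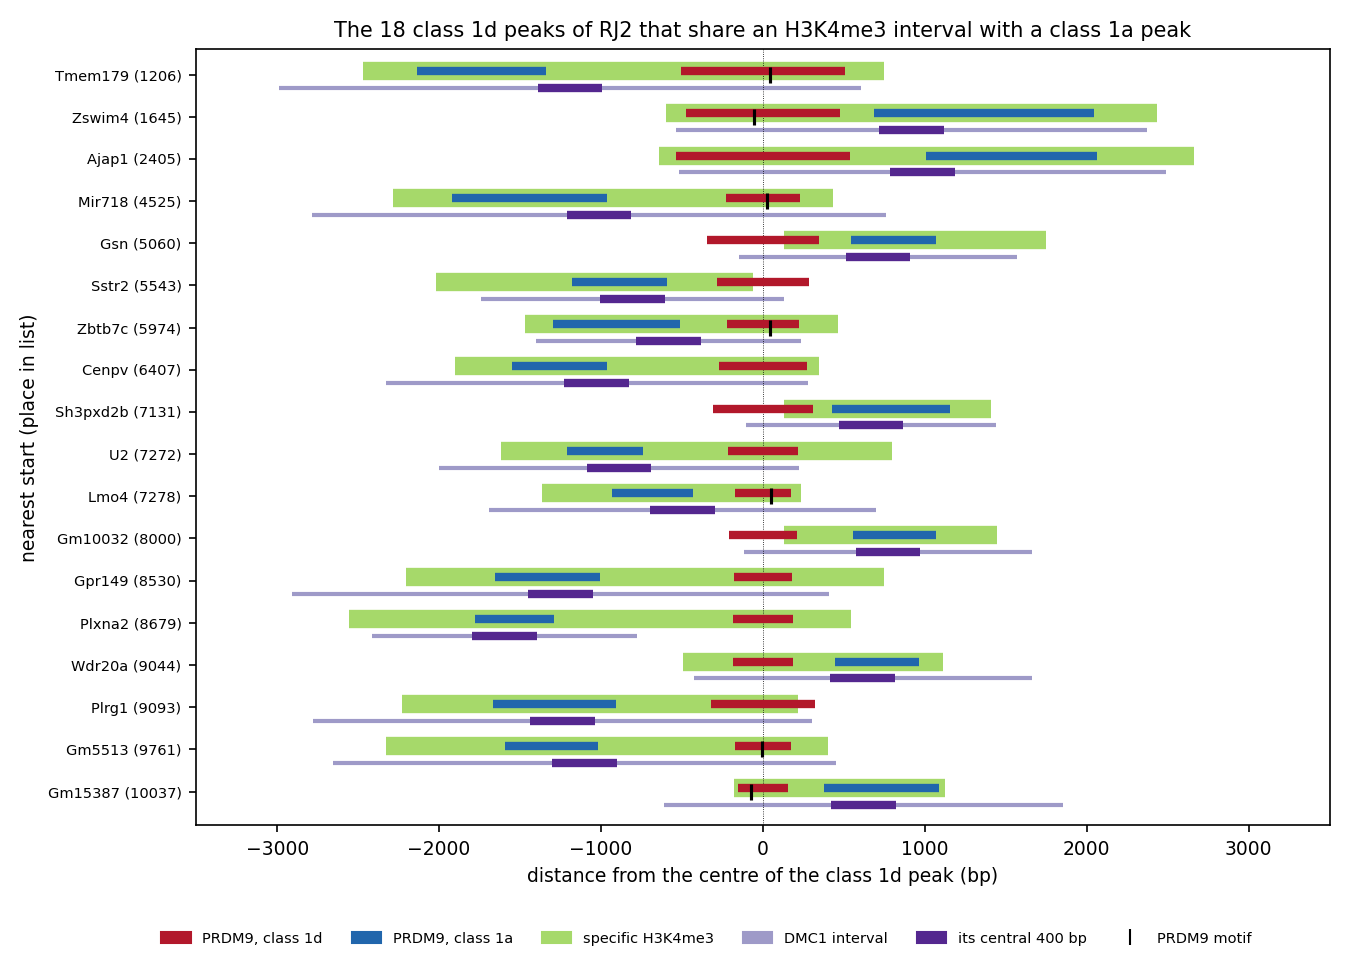
The 18 RJ2 class 1d peaks (red) that share an H3K4me3 interval (green) with a class 1a peak (blue), in list order, by distance from the centre of the class 1d peak in bp, with the DMC1 interval (violet), its central 400 bp (dark) and the member's motif (black tick). The dark segment lies at the blue peak in each row, which the class rule requires, and 7 of the 18 red peaks hold a motif.

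Another PRDM9 peak was near RJ2 members more often than near class 1a peaks, at about the share of class 2B. In RJ2, 97 members (24%, interval 19.9 to 28.5%) had a peak within 10 kb, against 8.93% of class 1a and 23.8% of class 2B peaks. The neighbour was class 1a in 61 cases, 2B in 23, 1d in 10 and 2A, a peak in common H3K4me3 without DMC1, in 3. Over all RJ2 peaks these classes made up 63.1%, 24.2%, 3.99% and 4.33%, and the split was not tested. In B6 3 of 24 members had another PRDM9 peak within 10 kb. They were the pair at *Dok2* and peak 575, 2571 bp from a class 1a peak at *Myt1*, a zinc finger transcription factor gene.

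Overlap with signals of the other strain was rare in members and in class 1a alike. No member overlapped the central 400 bp of a DMC1 interval of the other strain, with 0 of 24 in B6, which allows up to 12.5%, and 0 of 404 in RJ2, which allows up to 0.743%, against 1 of 1650 (0.0606%) and 30 of 6391 (0.469%) class 1a peaks. Whole DMC1 intervals of the other strain reached 0 of 24 B6 and 3 of 404 RJ2 members, against 8 of 1650 and 68 of 6391 in class 1a. Specific H3K4me3 of the other strain was met by 0 of 24 and 1 of 404 members, against 1 of 1650 and 0 of 6391 in class 1a. The removal of PRDM9 peaks shared by the strains and of H3K4me3 common to them limits such overlaps.

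Promoters were more frequent among members than among class 1a peaks. A transcription start lay within 1 kb of 4 of 24 B6 members (16.7%, interval 4.74 to 37.4%), against 71 of 1650 class 1a peaks (4.30%) and 26 of 260 in class 2B (10%), and 20.4% of all B6 peaks. The difference from 1a passed the threshold (Fisher's exact test, adjusted p = 0.0399) and that from 2B did not (adjusted p = 0.470). By the same exact test, the call against 1a rests on 4 peaks and was lost in both parts of the list, the first 50% and the last 50% (2 of 9 against 41 of 937, adjusted p = 0.109, and 2 of 15 against 30 of 713, adjusted p = 0.233). In RJ2 the numbers were 51 of 404 members (12.6%, interval 9.55 to 16.3%), against 261 of 6391 class 1a peaks (4.08%) and 320 of 2449 in class 2B (13.1%), with 9.82% over all RJ2 peaks. Members exceeded 1a (Fisher's exact test, adjusted p = 1.15e-10), and no difference from 2B was detected (adjusted p = 1). The difference of 8.54 points from 1a was 13.6 points in the first 50% of the list (23 of 128 against 175 of 3961, exact test, adjusted p = 1.88e-07), a part chosen after the data were seen. All 3 classes have less than 10% cover by common H3K4me3, so promoters marked in both strains are largely outside them.

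The 4 B6 promoter members were at *Foxo3* (397 bp downstream of the start), *Pnliprp2* (81 bp upstream), 1810014F10Rik (12 bp upstream, the peak centre in a coding exon) and *Slc36a1* (234 bp upstream), an amino acid transporter gene. The first 3 held the Dom2 motif, with scores of 13.56, 16.73 and 15.79, and the peak at *Slc36a1* scored 2.30. Their central 200 bp had a GC content of 56.0, 61.0, 64.5 and 39.5%, with 9, 8, 17 and 5 CpG dinucleotides, against a median of 48.2% and 4 over all 24. H3K4me3 specific to B6 covered 92.5, 99.4, 100 and 15.9% of these intervals.

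The 51 RJ2 promoter members held the motif less often than the other RJ2 members, a difference that was not tested. Of them 8 held the Cst motif (15.7%, interval 7.02 to 28.6%), against 172 of the 353 other members (48.7%, interval 43.4 to 54.1%), 2 intervals that do not overlap. Their H3K4me3 intervals had a median width of 611 bp, against 853 bp, and their median GC content was 52.0%, against 48.0%. The nearest start was of a protein-coding gene in 44, of a pseudogene in 4, of a lincRNA in 2 and of a processed transcript in 1, with 28 peaks upstream and 23 downstream of it. In list order the first 8 were at *Nfatc4* (a calcium-responsive transcription factor), *Pecr* (a peroxisomal enoyl-CoA reductase), *Cx3cl1* (the chemokine fractalkine), *Hs1bp3*, 6330416G13Rik, *Aqp5*, *Ano1* (a calcium-activated chloride channel) and *Slc9a3* (a sodium-proton exchanger). None of these 8 held the motif, with scores between -0.49 and 9.44 and a limit of 10.68. The 8 promoter members with the motif, named for that after their values were seen, were at *Alpl*, 0610007P08Rik, Gm16754, Gm16543, *Egfl7*, *Satb1*, *Cog1* and *Meis1*, with scores of 12.05 to 22.33.

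Most members were outside promoters. In B6 12 peak centres were in introns, 10 intergenic, 1 in a coding exon and 1 in a noncoding exon. In RJ2 214 were intergenic (53.0%), 168 in introns (41.6%), 8 in coding exons, 9 in UTR exons and 5 in noncoding exons. Class 1a had 47.6% intergenic and 47.9% intronic peaks in RJ2, and 46.4 and 47.9% in B6. The first members of the RJ2 list were peak 209, whose centre lay in a coding exon of the chemokine receptor gene *Ccr10*, peak 214, 2933 bp upstream of *Nbl1*, and peak 440 in *Pebp4*. The first in B6 were peak 530 in an intron of *Enpp6*, a choline phosphodiesterase gene, peak 538 in *Foxo3* and peak 575 in *Myt1*. Of 34 genes listed for meiotic recombination and the chromosome axis, among them *Spo11*, *Dmc1*, *Sycp1* and *Hormad1*, 32 were found in the annotation, and 0 had a class 1d peak in the gene or within 10 kb of its start in either strain. The 1650 class 1a peaks of B6 were at 1 of these genes and the 6391 of RJ2 at 3. Class 1d is far smaller, so its 0 cannot tell whether members avoid these genes, and this was not tested.

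Binding was less often found without SPO11 at members than at class 1a peaks. The *Spo11* knockout list, made with the Dom2 allele, overlapped 3 of 24 B6 members (12.5%, interval 2.66 to 32.4%), against 849 of 1650 class 1a peaks (51.5%, interval 49.0 to 53.9%) and 5 of 260 in class 2B (1.92%, interval 0.627 to 4.43%), with 35.5% of all B6 peaks. The share was lower than in 1a (Fisher's exact test, adjusted p = 3.55e-04) and higher than in 2B (adjusted p = 0.0413). The 3 were peaks 530 at *Enpp6*, 575 at *Myt1* and 819, an intergenic peak on chromosome 2 with 53305 bp to the nearest start. All 3 were in the first 50% of the list. There the list overlapped 3 of 9 members, against 672 of 937 class 1a peaks (71.7%, Fisher's exact test, adjusted p = 0.0399). Class 2B had 3 of 23 there (Fisher's exact test against members, adjusted p = 0.493). In the last 50% it overlapped 0 of 15 members, against 177 of 713 class 1a peaks (24.8%, Fisher's exact test, adjusted p = 0.0519). Class 2B had 2 of 237 there (Fisher's exact test against members, adjusted p = 1). The class 1a share thus fell along the list, and 15 of the 24 members stood late in it. The comparison over the whole list therefore mixes class with list place. The comparison in the first 50% is not matched for place either. No member stood before peak 530, and 361 of the 937 class 1a peaks lay in bin 1 of the list, which held no member. Overlap at matched list place was not tested. The paper says that the lower number of peaks in this knockout could reflect lower sensitivity. Peaks 575 and 819 held the motif, with scores of 11.80 and 13.02, and peak 530 did not, with 1.43. RJ2 has no list of this kind here.

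The *Prdm9* knockout list, a control for the antibody, overlapped 0 of 24 B6 members (up to 12.5%), against 1 of 1650 class 1a and 1 of 260 class 2B peaks and 0.0769% of all B6 peaks (adjusted p = 1 for both, Fisher's exact test). In RJ2 it overlapped 6 of 404 members (1.49%, interval 0.547 to 3.20%), against 12 of 6391 class 1a peaks (0.188%) and 200 of 2449 in class 2B (8.17%), with 2.49% of all RJ2 peaks. Members exceeded 1a (Fisher's exact test, adjusted p = 0.00105) and were below 2B (adjusted p = 2.04e-07). The authors had removed PRDM9 peaks over *Prdm9* knockout peaks, and these overlaps of at least 1 bp remained in the lists. The tests therefore compare what the removal left in each class and cannot measure antibody background per class. The first 3 members concerned were peak 2145 near *Ddit4*, peak 2772 near *Slc27a6* and peak 3377 in an intron of the glutamate receptor gene *Grik3*, and none of the 6 held the motif.

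Members were spread over the chromosomes. In RJ2 every autosome held between 11 and 37, and class 1d was between 4.12% (chromosome 16, 11 of 267) and 8.70% (chromosome 15, 24 of 276) of peaks with specific H3K4me3 on autosomes. In B6 they lay on 14 autosomes, with up to 3 on each. The X chromosome held 0 of 24 B6 members (up to 12.5%), against 36 of 1650 class 1a and 2 of 260 class 2B peaks, and 5 of 404 RJ2 members (1.24%), against 115 of 6391 class 1a peaks (1.80%) and 21 of 2449 in class 2B (0.857%), with 2% of all B6 and 1.56% of all RJ2 peaks on it. None of these differences passed the threshold (adjusted p from 0.553 to 1, Fisher's exact test). The 5 X-linked members, among them the pair at *Gpr64*, all lay inside whole DMC1 intervals, at gaps of 69 to 871 bp. With whole intervals counted, all 5 therefore pass to class 1a. None of 339 RJ2 members was then on the X chromosome, against 120 of 6456 class 1a peaks (Fisher's exact test, adjusted p = 0.00901). That 0 is set by the change of the DMC1 rule, so the call is no separate result about the X chromosome.

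The GC content of members lay between that of classes 1a and 2B. The median GC content of the central 200 bp was 48.2% in 1d, 45% in 1a and 50.5% in 2B of B6, and 48.5, 45 and 50% in these classes of RJ2. The quartiles of 1d were 42.8 and 56.0% in B6 and 43.5 and 52.5% in RJ2, and these values were not tested.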

How the data were processed

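PRDM9, DMC1 and H3K4me3 were mapped by ChIP-seq in mouse testes. The 9 deposited lists used here hold peak positions on mm9, and no count, height or score. Per the labels and the methods, the authors aligned reads and called peaks, and the submitters' processing notes name Bowtie2, BWA, Bowtie, CASAVA and MACS2. The authors kept reproducible peaks where there were 2 replicates, removed PRDM9 peaks over *Prdm9* KO peaks or shared by the strains, and split H3K4me3 into common and strain-specific intervals. Read depth per sample is unknown from the lists, and intervals and limits cover the counting of peaks only.

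Class 1d was set by the rule at the opening, with common H3K4me3 read before specific H3K4me3. Genome and annotation were NCBIM37 and GENCODE vM1. A promoter peak had its centre within 1 kb of a transcription start, and an overlap was at least 1 bp. Motif matrices took 3 rounds of learning. Shares were compared by Fisher's exact test, two-sided, with Benjamini-Hochberg adjustment over 22 tests and a threshold of 0.05, in Python 3.11.15 with numpy 2.4.6, scipy 1.17.1 and statsmodels 0.14.6. The code was tested on simulated data. Alternatives changed the DMC1 part, the H3K4me3 cover, the motif limit, window and word, the promoter distance and the part of the list.

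The members and lists were chosen with earlier results of these data known. Sites were named by rule: per strain the first 3 in list order, the widest, those nearest the limits of cover and of DMC1 gap, promoter members (all in B6, the first 8 in RJ2), those over *Spo11* KO or *Prdm9* KO peaks (the first 3 where over 5) and the 10 best motif sites. Pairs inside DMC1 or H3K4me3 intervals, X-linked members, the 8 RJ2 promoter members with a motif, *Foxo3* and *Epha6* windows and peak 717 were chosen otherwise, some after their values were seen. No sequence of chromosome 18 is shown. The H3K36me3 libraries and H3K4me3 lists of another study were not used here.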

Additional observations from a re-analysis of the deposited data

How the results depend on the processing

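Of 82 alternatives to a test, 64 kept its direction and its side of the threshold, and of 14 alternatives to the number of members 12 stayed within 1.5 times of it. Alternatives added after the data were seen take the last 50% of the list, split the promoter comparison by list place, leave out promoter peaks or, for the motif against 2B, leave out peaks within 10 kb of a DMC1 centre (53.7 in B6 and 38.3 in RJ2, both with the call kept). Differences here are percentage points, class 1d minus the other class. The number of members rested most on the DMC1 rule. Counting only the centre base of the DMC1 interval gave 116 members in B6 and 661 in RJ2, and whole intervals 18 and 339. In RJ2 the lower motif share against 1a lost its call with the 1% limit (-4.81), in the last 50% of the list (-5.47) and without promoter peaks (-3.63), and turned with the word (0.249). In B6 the motif call against 2B was lost with the word (21.0) and in the first 50% (38.6), and that for the first 50% of the list with its first 25% (10.2). The B6 promoter call against 1a was lost in the first 50% (17.8) and the last 50% (9.13), and the *Spo11* KO call against 1a in the last 50% (-24.8). The *Spo11* KO difference from 2B was 20.3 in the first 50%, past no threshold, and -0.844 in the last 50%, the opposite direction. Whole DMC1 intervals, which pass all 5 X-linked RJ2 members to class 1a, brought the X chromosome in RJ2 to -1.86 against 1a, past the threshold, and to -0.824 against 2B. Promoter differences from 2B, past no threshold, turned to -12.6 in B6 in the first 50%, and in RJ2 to 0.663 within 500 bp, 1.05 with whole DMC1 intervals and 0.00142 in the first 50%. Parts of the list hold fewer peaks, and for the other alternatives the cause was not tested.

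No paired analysis was possible because the PRDM9, DMC1 and *Spo11* KO lists pool their replicates and the H3K4me3 and *Prdm9* KO lists come from 1 library each, so no replicate could be left out either. Alternatives on repeats were not run, since the genome used here does not mark repeats. With 24 members, B6 shares have wide intervals, and differences between the strains were not tested. The signals came from testes of different ages and cells, and a weak DMC1 signal cannot be told apart from none in a list without heights.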
